A study of Mus musculus with 8 samples.

Results

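Aldehyde dehydrogenases turn reactive aldehydes into carboxylic acids with the help of an oxidized nicotinamide cofactor. The aldehydes come from peroxidized membrane lipids, from alcohols, from retinol and from amino acid breakdown. In the mammalian cornea one of these enzymes, Aldh3a1, is so abundant that it is counted among the corneal crystallins, the name given to enzymes that a transparent tissue holds at far higher levels than catalysis would need. It absorbs ultraviolet light and oxidizes aldehydes such as hydroxynonenal.

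The genes described here are Aldh3a1 and 7 relatives that stand for the other cellular addresses and substrates of the family, namely Aldh3a2, Aldh3b1, Aldh1a1, Aldh1a7, Aldh2, Aldh9a1 and Aldh7a1. They are given by name, with no measured value in the rule, though earlier results of these data were known when they were proposed, and all 8 were found among the 54532 genes of the expression table, of which 31314 were above 0 in at least one cornea. The series holds total RNA of 8 naive corneas, 4 from BALB/cN mice and 4 from C57BL/6N mice, 2 inbred strains that the study crossed to look for genes of corneal lymphatic vessels. The mice were males, no transgene or treatment is named for them, and the study states an age for the mice it phenotyped but not separately for those sequenced. Expression is given as the regularized logarithm (rlog) of the read counts, a log2 scale on which counts have been adjusted for library size and low counts pulled towards the mean of the gene. No read counts were analysed, so the depth behind each value is unknown, and the labels do not say whether the corneas of a strain came from separate animals, so that p-values measure the spread between these corneas.

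The corneal origin of the samples was checked with marker genes. Krt12, the keratin that defines corneal epithelium, lay between 19.60 and 19.85 rlog in all 8 corneas, and none of the 5 epithelial markers passed the test between strains. The corneas differed in the RNA level of markers of other layers and tissues, and stroma-poor here means low in stromal marker RNA. The mean of 7 stromal keratocyte markers was 12.10 in BALB/cN cornea 2, 11.64 in C57BL/6N cornea 3 and 11.62 in C57BL/6N cornea 4, against 13.64 to 14.53 in the other 5. Of these markers Ptgds stood apart in BALB/cN, at 11.37, 7.09, 6.42 and 12.58. It was lowest in cornea 3, where Kera was at 14.36. The mean of 10 lens markers was 7.35 in BALB/cN cornea 1 and 6.49 in BALB/cN cornea 4, against 4.64 to 5.31 elsewhere, and the mean of 6 pigment cell markers was also highest in these 2 corneas, at 9.58 and 10.48, against 5.85 to 7.96 elsewhere. For each called gene named here, a call lost when the 3 stroma-poor corneas or the 2 corneas high in lens and pigment markers were left out is given beside the result.

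Aldh3a1 (ENSMUSG00000019102, GRCm38 chr11:61207537-61218421, plus strand) was among the most abundant transcripts of the cornea. Its rlog value was 18.34, 18.42, 18.43 and 18.33 in the BALB/cN corneas and 18.45, 18.47, 18.26 and 18.49 in the C57BL/6N corneas. All 8 corneas lay within a narrow band and the strains overlapped. To compare genes with each other, 2 was raised to the rlog value, divided by the length of the exons of the gene in kilobases and expressed in parts per 1000000 of the sum over 25382 genes (ppm). On this length-scaled level Aldh3a1 stood at 13890 to 15900 ppm and ranked between 3 and 5 among the 16006 protein-coding genes in every cornea. The keratin genes Krt12 (36360 to 43830) and Krt5 (17600 to 20150) were higher in all 8 corneas, and the ranges of the mitochondrial genes mt-Cytb (11470 to 17670) and mt-Nd1 (8139 to 15470) and of the glutathione transferase gene Gsto1 (6812 to 15700) overlapped with it.

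The other 7 members were expressed at far lower length-scaled levels. Aldh2, the mitochondrial enzyme that clears acetaldehyde, came next with 66.7 to 128 ppm. By exon length Aldh3a1 exceeded it 113 to 221 times within a cornea, a ratio that was smaller by coding length, as given below. Aldh1a1, a cytosolic enzyme that makes retinoic acid from retinaldehyde, followed at 49.9 to 78.9 and lay below Aldh2 in 8 of 8 corneas, though the ranges of the 2 genes overlapped over the whole series. Aldh9a1, which acts on the aldehyde precursor of carnitine, stood at 21.4 to 30.4, clear of Aldh1a1 in every cornea. Aldh3b1, a lipid-anchored enzyme for medium- and long-chain aldehydes, stood at 12.5 to 26.2 and below Aldh9a1 in 8 of 8 corneas. Aldh3a2, the fatty aldehyde dehydrogenase of the endoplasmic reticulum, stood at 9.80 to 13.7, and Aldh7a1, or antiquitin, which takes part in lysine breakdown, at 8.33 to 12.2. The order was not the same in every cornea for these last genes: Aldh3b1 exceeded Aldh3a2 in 7 of 8 corneas, and Aldh3a2 exceeded Aldh7a1 in 7 of 8. Aldh1a7, a rodent relative of Aldh1a1, was the lowest of the 8 in all corneas, at 4.68 to 7.52. Coding length in place of exon length changed the order of Aldh3b1 and Aldh3a2. The mean share of the summed level of the members was then 0.0878% for Aldh3b1, 0.176% for Aldh3a2 and 0.145% for Aldh7a1 in C57BL/6N. In BALB/cN it was 0.149%, 0.164% and 0.1445%.

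**Figure D1:**
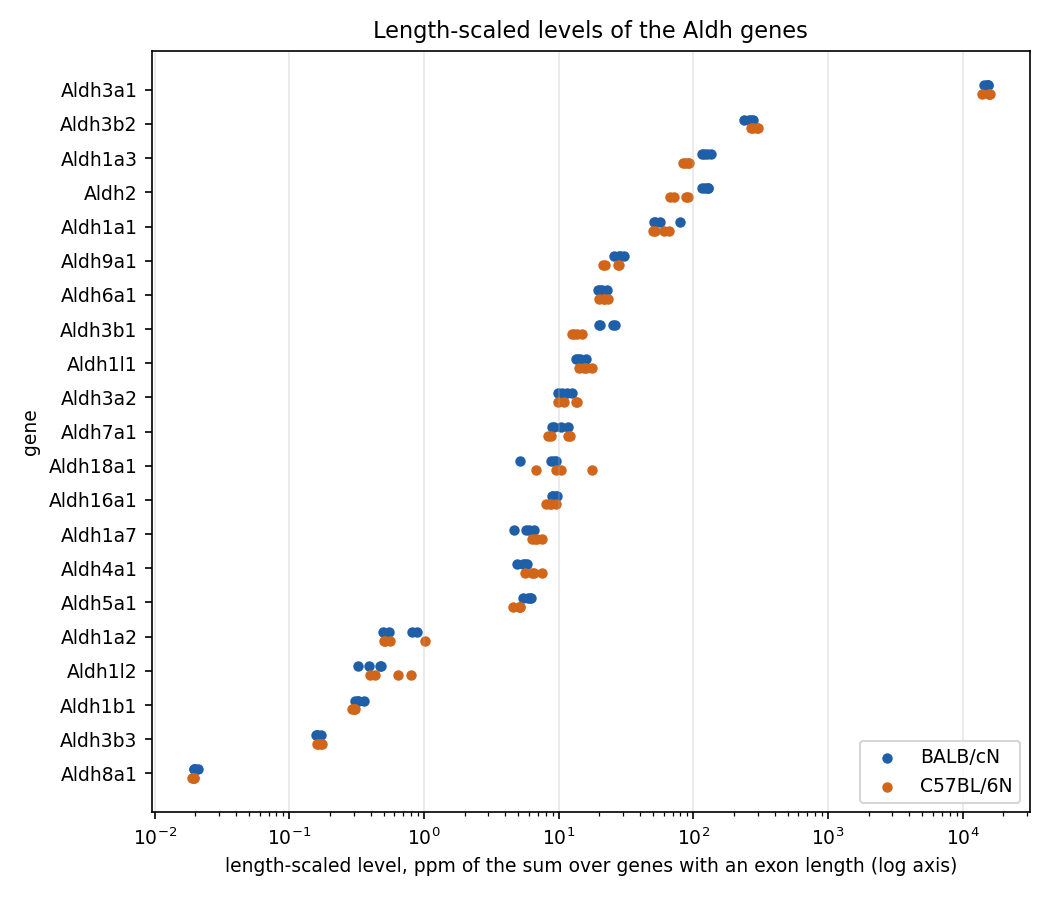
Length-scaled level of 21 measured Aldh genes in each cornea, in ppm of the sum over 25382 genes, on a log axis; each point is 1 cornea, BALB/cN above and C57BL/6N below each line. Aldh3a1, at 13890 to 15900, stands apart from Aldh3b2, the next gene, at 238 to 302.

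Aldh3a1 therefore made up nearly all of the summed length-scaled level of the members. Its share was 98.14%, 98.46%, 98.40% and 98.22% in the BALB/cN corneas and 98.56%, 98.61%, 98.73% and 98.85% in the C57BL/6N corneas. The strains did not overlap in this share, though they did in the level of Aldh3a1 itself. The share of Aldh2 was 0.736% to 0.867% in BALB/cN and 0.447% to 0.571% in C57BL/6N. Shares have a fixed sum, so that of Aldh3a1 falls where those of other members rise. The separation in share is therefore not a strain difference of Aldh3a1 in its own right. Among all 21 measured Aldh genes Aldh3a1 still held 95.36% to 96.09%. With the coding length in place of the exon length the mean share among the members over the 8 corneas was 96.93% instead of 98.5%. The share of Aldh2 was then 1.017% to 1.959% over all corneas, so Aldh3a1 exceeded it by a smaller ratio than by exon length.

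Across the strains, 2 of the 8 members passed the test of limma (adjusted p not above 0.01), and both were higher in BALB/cN. Beside this, 5.74% of the 25402 genes tested were called (2.83% higher and 2.91% lower in BALB/cN), and 8.92% of the 12244 genes whose mean rlog was 7 or more. The median difference of the members was 0.00 on the log2 scale, beside 0.01 over all genes tested. The remaining 6 members ranged from -0.29 to 0.18. A share of 8 genes rests on single genes, so the members are described one by one.

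**Figure D2:**
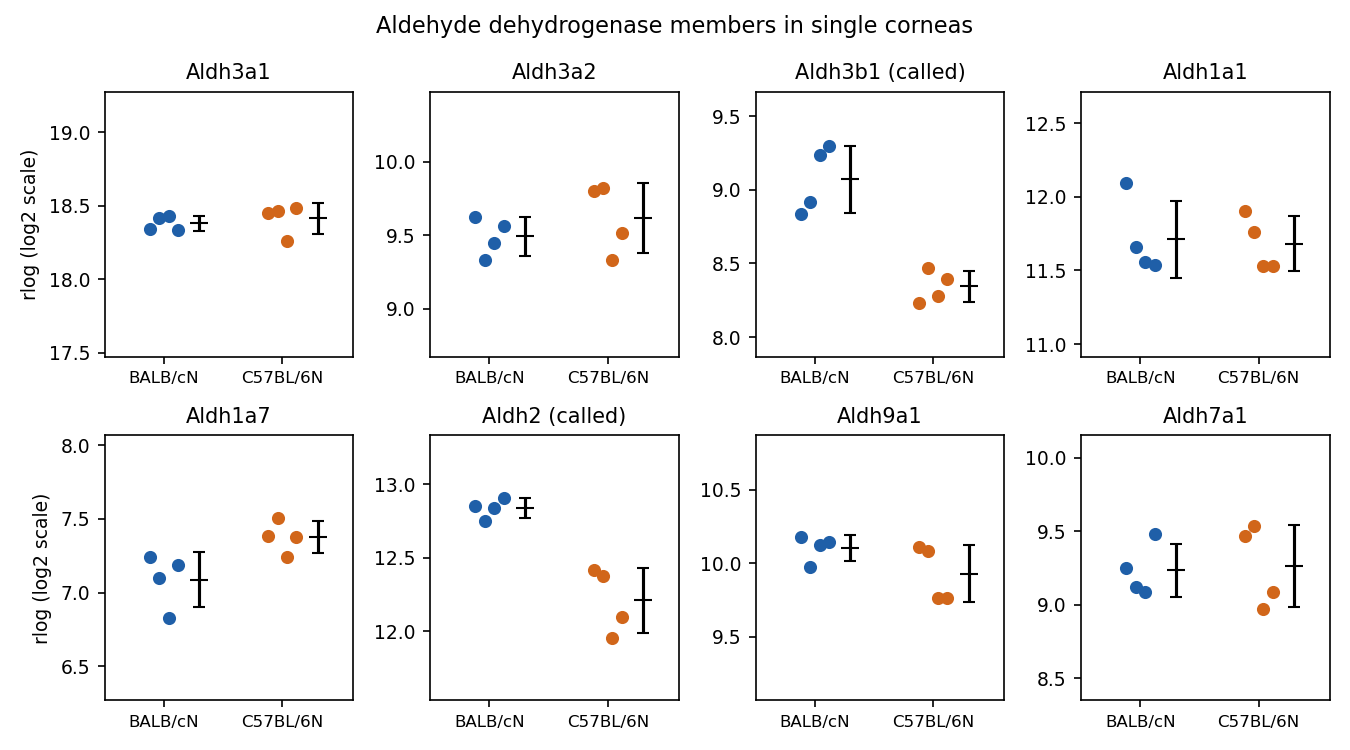
The rlog value (log2 scale) of the 8 members in each cornea; each point is 1 cornea, the black bar is the mean and its whiskers the standard deviation of 4 corneas, and every panel spans the same range of 1.8 rlog units. The strains are apart for Aldh3b1 and Aldh2 and overlap for the other 6 genes.

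Aldh3b1 (ENSMUSG00000024885, chr19:3913491-3929808, minus strand) had the largest difference of the members. It stood at 8.83, 8.92, 9.24 and 9.30 rlog in the BALB/cN corneas and at 8.23, 8.47, 8.28 and 8.40 in the C57BL/6N corneas. Every BALB/cN cornea lay above every C57BL/6N cornea, a separation shown by 18.3% of all genes tested and, in this direction, by 8.75%. Among genes with a mean rlog of 7 or more, 24.8% were separated in either direction. The mean was 9.07 ± 0.23 (SD, n = 4) against 8.34 ± 0.11 (SD, n = 4), a difference of 0.73 (SE 0.11, 95% interval 0.47 to 0.98) or 1.66-fold on the rlog scale, with an adjusted p of 0.00293 from limma. The exact two-sided permutation p for this gene alone was 0.0286, the smallest that 4 corneas against 4 can give. The call was lost, with adjusted p-values of 0.0108 to 0.0123, without BALB/cN cornea 3, C57BL/6N cornea 1 or C57BL/6N cornea 3. The difference was 0.77 among the 5 corneas with high stromal markers (adjusted p = 0.0329) and 0.73 without the 2 corneas high in lens and pigment markers (adjusted p = 0.0199).

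Aldh2 (ENSMUSG00000029455, chr5:121566027-121593824, minus strand) was the other member called. Its values were 12.86, 12.75, 12.84 and 12.91 rlog in BALB/cN and 12.42, 12.37, 11.96 and 12.10 in C57BL/6N. The strains did not overlap, and within C57BL/6N the 2 stroma-poor corneas were the lowest. The mean was 12.84 ± 0.07 (SD, n = 4) against 12.21 ± 0.22 (SD, n = 4), a difference of 0.63 (SE 0.10, 95% interval 0.41 to 0.85) or 1.55-fold, with an adjusted p of 0.00301 from limma and an exact permutation p of 0.0286. With the stromal marker mean as a covariate the difference was 0.57 (adjusted p = 1.94e-05), and among the 5 corneas with high stromal markers it was 0.47 (adjusted p = 0.00212). Without BALB/cN cornea 1, 3 or 4, or without C57BL/6N cornea 4, the adjusted p was 0.0124 to 0.0133, and without the 2 corneas high in lens and pigment markers it was 0.0713 with a difference of 0.59.

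These calls depend on how the null distribution is set. When the p-values of all genes were recalibrated to an empirical null distribution, limma called 0 genes (1730 had a recalibrated p under 0.05 before adjustment), and the adjusted p was 0.553 for Aldh3b1 and 0.557 for Aldh2. The study also recalibrated the p-values of its own test on read counts, and still reported strain differences at the same threshold. The study differed from the fit here in its input, its test and its tool for recalibration, which cannot be told apart. Why the outcomes differ was not tested.

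The most abundant member did not pass the test. For Aldh3a1 the BALB/cN mean of 18.38 ± 0.05 (SD, n = 4) stood against a C57BL/6N mean of 18.41 ± 0.11 (SD, n = 4), a difference of -0.04 with a 95% interval from -0.16 to 0.09 (adjusted p = 0.747). The interval leaves out differences of more than 1.12-fold in either direction on the rlog scale. Its neighbour Aldh3a2 (chr11:61223417-61267464, minus strand), 4996 bases downstream and read towards it, gave -0.12 (interval -0.39 to 0.14, adjusted p = 0.569), with 9.33 to 9.63 rlog in BALB/cN and 9.34 to 9.82 in C57BL/6N.

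Aldh1a1 (chr19:20492715-20643465, plus strand) was at 12.10, 11.66, 11.56 and 11.54 rlog in BALB/cN and at 11.91, 11.76, 11.53 and 11.53 in C57BL/6N. The strains overlapped, the difference was 0.03 (interval -0.27 to 0.33, adjusted p = 0.923), and its sign turned to -0.04 with median centring. Aldh1a7 (chr19:20692953-20727562, minus strand), 49488 bases further along the chromosome, was at 7.24, 7.10, 6.83 and 7.19 in BALB/cN and at 7.39, 7.51, 7.24 and 7.37 in C57BL/6N. Only the highest BALB/cN cornea reached the lowest C57BL/6N cornea. The difference of -0.29 (interval -0.53 to -0.05) did not pass the test over all genes (adjusted p = 0.132), and the exact permutation p was 0.0571.

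Aldh1a1 and Aldh1a7 are near copies, so the sequences that separate their reads are given. Their coding sequences are both 1503 bases long and 91.6% identical, with 126 mismatches and no gap. The first 90 coding bases, from the GENCODE M21 transcripts, are shown with the 5 bases that differ in capitals:
Aldh1a1: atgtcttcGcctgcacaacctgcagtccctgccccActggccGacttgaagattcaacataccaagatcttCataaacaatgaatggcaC
Aldh1a7: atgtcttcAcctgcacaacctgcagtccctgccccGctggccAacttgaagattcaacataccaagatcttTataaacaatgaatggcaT

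The likeness goes on upstream of the genes. RefSeq (GRCm38.p6) gives Aldh1a1 a pair of start sites, and the 88 bases before the downstream one (chr19:20601880-20601967, plus strand) match the 88 bases before the start of Aldh1a7 (chr19:20727557-20727644, minus strand) at 85 positions, against 24 for the upstream start of Aldh1a1. These 2 windows are shown with the 3 differing bases in capitals:
Aldh1a1: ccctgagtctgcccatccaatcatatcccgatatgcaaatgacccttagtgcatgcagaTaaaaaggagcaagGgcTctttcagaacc
Aldh1a7: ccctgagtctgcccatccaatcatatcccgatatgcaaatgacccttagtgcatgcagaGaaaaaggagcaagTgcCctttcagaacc

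Both windows hold the letters CCAAT once, starting 72 bases before the start, a motif that 33.8% of the 32851 promoter windows hold on either strand in the 250 bases before the start. The other motifs searched on both strands were the core of the aryl hydrocarbon receptor site (GCGTG, in 28.2% of promoter windows), the antioxidant response element (TGACNNNGC, 10.2%) and the TATA box (TATAAA, 12.4%). Among the 5 members with a promoter window, GCGTG had 2 matches in Aldh9a1 and 1 in Aldh3a2. TGACNNNGC had 1 match in Aldh9a1 and TATAAA 1 in Aldh1a7. This TATAAA match lay 244 bases before the start of Aldh1a7, outside the stretch shown above. Only exact matches were counted, so variant forms of the TATA box nearer to a start were not searched. The window of Aldh3b1 held none of the 4 motifs.

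At the read length of the study, 100 bases, nearly all of the transcribed sequence of the members was their own. Of the 100-base windows along the protein-coding transcripts of Aldh1a1, 1 of 2493 was also present in Aldh1a7. It is the longest stretch in which no base tells the genes apart, coding bases 757 to 856:
Aldh1a1 and Aldh1a7: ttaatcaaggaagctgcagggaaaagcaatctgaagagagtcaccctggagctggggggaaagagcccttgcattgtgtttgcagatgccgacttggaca

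For Aldh3b1, the member with the largest difference, 8 of 1825 windows were shared, all with Aldh3b3. They form the following stretch of 107 bases, coding bases 880 to 986 of Aldh3b1:
Aldh3b1 and Aldh3b3: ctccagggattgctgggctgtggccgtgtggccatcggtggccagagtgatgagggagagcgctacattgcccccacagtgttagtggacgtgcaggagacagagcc

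Aldh3b3 itself was at 2.94 to 3.13 rlog in all corneas and did not pass the test (difference -0.06, adjusted p = 0.549). Aldh3a1, Aldh3a2 and Aldh9a1 shared no window with any other gene, and Aldh2 shared 31 of 4338 with a gene model on the opposite strand. Aldh7a1 shared 107 of 4391 with Phax, an overlapping gene on the opposite strand with a mean rlog of 9.79. The library protocol kept the strand, but whether the counting used it is not given in the sources used here, so the value of Aldh7a1 may hold reads of Phax.

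The remaining 2 members had their lowest values in stroma-poor C57BL/6N corneas. Aldh9a1 (chr1:167349991-167368532, plus strand) was at 10.18, 9.98, 10.13 and 10.15 rlog in BALB/cN and at 10.11, 10.08, 9.77 and 9.76 in C57BL/6N, a difference of 0.18 (interval -0.04 to 0.39, adjusted p = 0.314). Aldh7a1, on chromosome 18, was at 9.25, 9.12, 9.09 and 9.48 in BALB/cN and at 9.47, 9.53, 8.97 and 9.09 in C57BL/6N, a difference of -0.03 (interval -0.35 to 0.29, adjusted p = 0.923) whose sign turned when BALB/cN cornea 2 or 3, or C57BL/6N cornea 1 or 2, was left out.

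**Figure D3:**
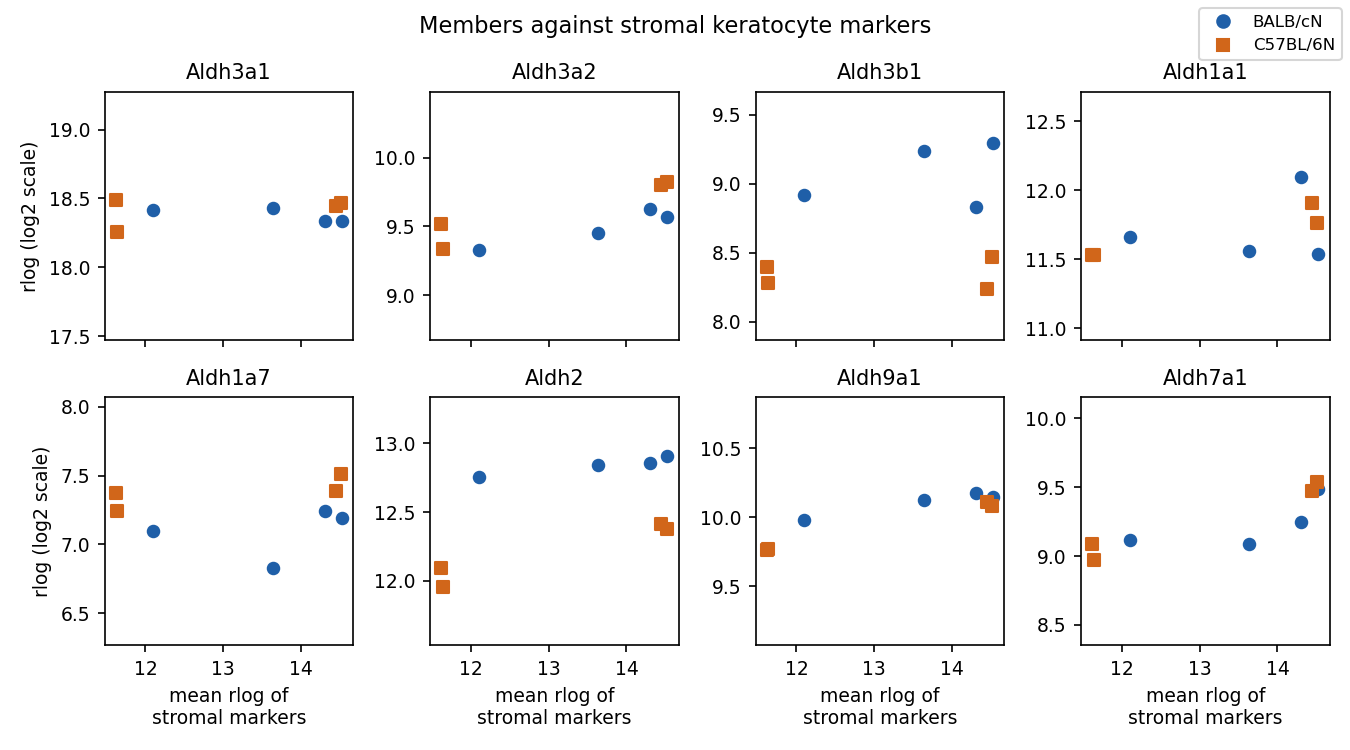
The rlog value of each member (vertical axes, log2 scale, each spanning 1.8 rlog units) against the mean rlog value of 7 stromal keratocyte markers in the same cornea; circles are BALB/cN and squares C57BL/6N corneas. Within C57BL/6N, Aldh2, Aldh9a1, Aldh7a1, Aldh3a2, Aldh1a1 and, by less, Aldh1a7 are lower in both stroma-poor corneas at the left than in the stroma-rich ones, whereas the values of Aldh3b1 and Aldh3a1 overlap.

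Since each sample is a whole cornea, fewer cells of a layer and less RNA per cell cannot be told apart. The plot against stromal markers shows how the members moved among corneas of one strain. The stroma-poor C57BL/6N corneas 3 and 4 were also low in endothelial markers (means of 11.96 and 11.67, against 13.02 and 12.97 in corneas 1 and 2) and in leukocyte markers (6.14 and 6.07, against 6.69 and 6.81), so the layers cannot be told apart. In C57BL/6N, Aldh3a2 was at 9.80 and 9.82 in the stroma-rich corneas 1 and 2 and at 9.34 and 9.51 in the stroma-poor corneas 3 and 4. Aldh7a1, Aldh9a1, Aldh2 and Aldh1a1 had the same arrangement, with the values given above, and so, with a smaller gap, did Aldh1a7. In BALB/cN, where only cornea 2 was stroma-poor, it held the lowest value of Aldh3a2, Aldh2 and Aldh9a1, but not of Aldh7a1, which was lowest in cornea 3 (9.09, against 9.12), nor of Aldh1a1 or Aldh1a7. Aldh3b1 did not have this arrangement in C57BL/6N, with 8.23 and 8.47 in the stroma-rich and 8.28 and 8.40 in the stroma-poor corneas. Neither did Aldh3a1, whose lowest and highest C57BL/6N values, 18.26 and 18.49, were both in stroma-poor corneas. The 5 corneas with high and the 3 with low stromal markers form separate clusters, so no correlation is given.

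By Pearson correlation of deviations from the strain means over the 8 corneas, the 5 genes most like Aldh3a1 among 9642 protein-coding genes with a mean rlog of at least 8 were Serbp1 (r = 0.985), Mdc1 (0.977), Gng12 (0.975), Tpm4 (0.973) and Rcc2 (0.972). Serbp1 ran between 13.45 and 13.63 rlog and Tpm4, with the widest range of the 5, between 11.34 and 11.93. These are the highest of 9642 correlations over 8 corneas. The largest deviation of Aldh3a1 from its strain mean was in C57BL/6N cornea 3 (18.26 rlog, against 18.45 for the next), so this cornea weighs heavily in them. The points share their libraries, and no test is given.

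The nearest tested protein-coding genes beside the called members were examined. On one side of Aldh3b1 lies Ndufs8, a subunit of respiratory complex I, 717 bases away, which differed by 0.15 (adjusted p = 0.327). On the other side lies Unc93b1, a chaperone of endosomal Toll-like receptors, 5378 bases away. It was at 10.61, 10.80, 10.85 and 10.80 rlog in BALB/cN and at 10.39, 10.27, 10.45 and 10.43 in C57BL/6N, higher by 0.38 (SE 0.07, adjusted p = 0.00606). This call was kept in 1 of the 8 fits that left out a cornea and was lost with median centring (adjusted p = 0.166), among the corneas with high stromal markers (adjusted p = 0.0314) and without those high in lens and pigment markers (adjusted p = 0.0232). Beside Aldh2, neither Mapkapk5 (-0.01, adjusted p = 0.961) nor Acad12 (-0.02, adjusted p = 0.905) passed the test.

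The rest of the Aldh family gave 1 called gene among 13 tested (7.69%, beside 5.74% of all genes tested). This was Aldh1a3, which like Aldh1a1 makes retinoic acid. It was at 12.55, 12.74, 12.83 and 12.65 rlog in BALB/cN and at 12.30, 12.15, 12.18 and 12.30 in C57BL/6N. The strains did not overlap, and the difference was 0.46 (SE 0.07, 1.37-fold, adjusted p = 0.00234), or 0.38 with median centring, where the call was lost (adjusted p = 0.0707). It was also lost among the 5 corneas with high stromal markers (0.45, adjusted p = 0.0347). The third enzyme of this kind, Aldh1a2, was far lower at 3.72 to 4.76 rlog, with no call (0.08, adjusted p = 0.888). Aldh3b2, the second highest Aldh gene by length-scaled level, differed by -0.15 (interval -0.31 to 0.00, adjusted p = 0.22). The largest differences without a call were those of Aldh1l2 (-0.43) and Aldh18a1 (-0.41), mitochondrial enzymes of folate and proline metabolism, whose standard errors were 0.23 and 0.29.

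**Figure D4:**
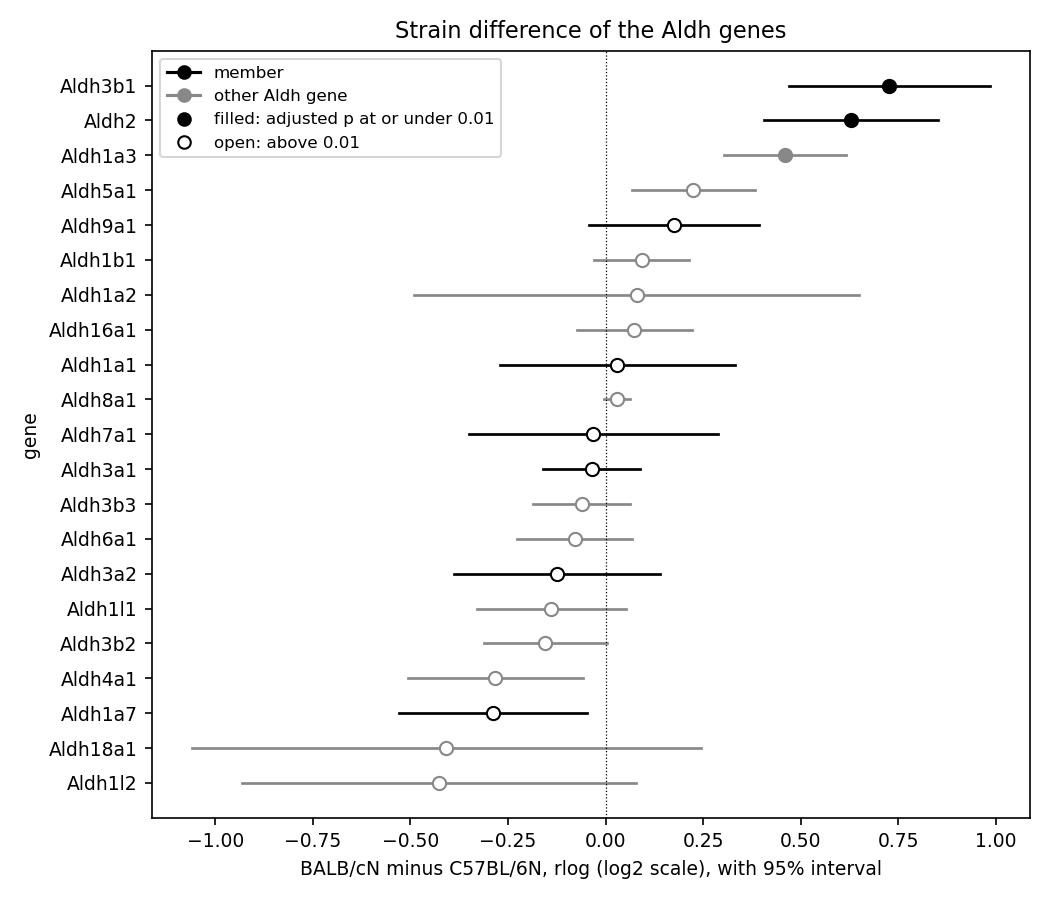
Difference between the strains (BALB/cN minus C57BL/6N, rlog on the log2 scale) with its 95% interval for 21 Aldh genes; black marks members, grey the other Aldh genes, and filled circles an adjusted p of 0.01 or less. Aldh3b1, Aldh2 and Aldh1a3 lie at 0.73, 0.63 and 0.46, and the interval of Aldh3a1 runs from -0.16 to 0.09.

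Other enzymes have been named corneal crystallins, and 1 of 4 passed the test, beside 5.74% of all genes tested. A share of 4 genes rests on single genes. Eno1, a glycolytic enolase, was 10.92 ± 0.07 in BALB/cN and 10.56 ± 0.05 in C57BL/6N (SD, n = 4 each), higher by 0.36 (adjusted p = 0.00236). Median centring left it at 0.28 without a call (adjusted p = 0.139), and the call was also lost among the corneas with high stromal markers (adjusted p = 0.0191) and without those high in lens and pigment markers (adjusted p = 0.0329). In addition, 39.5% of its 100-base windows were shared with other genes, chiefly its near copy Eno1b, so that its count is uncertain. Ppia, a peptidyl-prolyl isomerase, stood at 10.97, 10.45, 10.53 and 11.10 in BALB/cN and at 10.30, 9.19, 9.50 and 9.08 in C57BL/6N. No value overlapped, and its difference of 1.25 (SE 0.26) missed the threshold at an adjusted p of 0.0129. For Ppia 26.8% of windows were shared with 17 other genes. Tkt, the transketolase of the pentose phosphate pathway, was nearly as high as Aldh3a1 on the rlog scale at 17.93 to 18.26 and differed by 0.10 (adjusted p = 0.364), and Idh1 differed by -0.17 (adjusted p = 0.128).

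Aldehydes are also reduced to alcohols or joined to glutathione. Of 19 genes listed for these routes, 2 were called higher and 4 lower in BALB/cN. These calls made up 31.6% of the list. Over all genes tested 5.74% were called, and 8.92% of those with a mean rlog of 7 or more. The median difference of the list was -0.03, beside 0.01 over all genes tested. The lower genes included Adh7 and Adh1, alcohol dehydrogenases that also oxidize retinol. Adh7 was at 12.71 to 12.99 rlog in BALB/cN and at 13.98 to 14.26 in C57BL/6N, lower by 1.22 on the log2 scale (SE 0.08, 2.33-fold, adjusted p = 1.22e-05). Adh1 was at 14.39 to 14.69 against 14.98 to 15.18, a difference of -0.51 (SE 0.07, adjusted p = 0.00149), with an adjusted p of 0.0271 without the corneas high in lens and pigment markers. The length-scaled level of Gsto1 was 6812 to 7446 ppm in BALB/cN and 12160 to 15700 in C57BL/6N. In C57BL/6N it stood at 12630, 12160, 14710 and 15700 beside 15620, 15900, 13890 and 15770 for Aldh3a1, above it in cornea 3. This order holds for exon length, 2023 bases for Gsto1 and 1942 for Aldh3a1. The coding lengths are 745 and 1359 bases, by which Gsto1 would stand higher beside Aldh3a1. The rlog difference of Gsto1 was -0.98 (SE 0.09, adjusted p = 7.01e-05). Gsta2 differed by -0.82 (adjusted p = 2.59e-05), with 24.8% of its windows shared with other genes.

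The transferases Gsta3 and Gstm2 moved the other way. Gsta3 was at 12.10 to 12.28 in BALB/cN and at 11.29 to 11.60 in C57BL/6N, higher by 0.72 (SE 0.07, adjusted p = 0.000221). Gstm2 was higher by 0.61 (SE 0.08, adjusted p = 0.00113). Without the corneas high in lens and pigment markers both calls were lost (adjusted p = 0.0113 for Gsta3 and 0.0358 for Gstm2), and that of Gstm2 also among the corneas with high stromal markers (adjusted p = 0.012). Gsta4, the transferase with the strongest known activity on hydroxynonenal, was the second most abundant gene of the list on the rlog scale, at 16.16 to 16.69, and differed by -0.19 (interval -0.46 to 0.08, adjusted p = 0.382). Of the 6 calls in this list, Adh7, Gsto1 and Gsta2 were each kept in 19 of 20 alternative settings, the exception being the empirical null, Gsta3 in 18, and Adh1 and Gstm2 in 16.

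**Figure D5:**
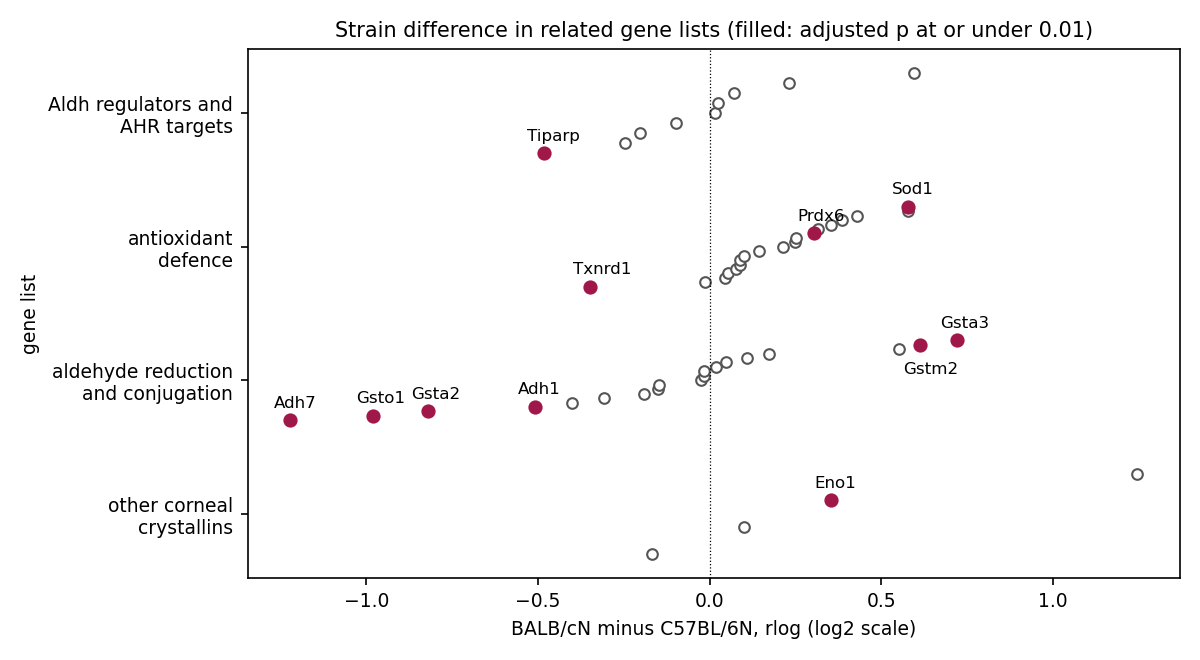
Difference between the strains (BALB/cN minus C57BL/6N, rlog on the log2 scale) of every tested gene in 4 related lists; each circle is 1 gene, and filled circles with names have an adjusted p of 0.01 or less. In the aldehyde reduction and conjugation list Adh7, Gsto1, Gsta2 and Adh1 lie between -1.22 and -0.51, and Gstm2 and Gsta3 at 0.61 and 0.72.

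Among 19 genes of antioxidant defence 2 were called higher, 1 was called lower and 16 were not called. The called share was 15.8%, beside 5.74% of all genes tested and 8.92% of those with a mean rlog of 7 or more. The median difference was 0.21, beside 0.01 over all genes tested. Sod1, the cytosolic superoxide dismutase, was at 10.67 to 10.79 rlog in BALB/cN and 9.96 to 10.30 in C57BL/6N, higher by 0.58 (SE 0.08, adjusted p = 0.00172), with an adjusted p of 0.046 without the corneas high in lens and pigment markers. Prdx6, a peroxiredoxin, was higher by 0.31 (adjusted p = 0.00917), a call lost in all 8 fits that left out a cornea. Txnrd1, thioredoxin reductase, differed by -0.35 (adjusted p = 0.00577), a call kept in 1 of those 8 fits. Among the corneas with high stromal markers the adjusted p was 0.0165 for Prdx6 and 0.0576 for Txnrd1, and without those high in lens and pigment markers 0.0646 and 0.0563.

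Of 11 genes for regulators known to act on Aldh genes and for their targets, 9 were tested. The test called 1 of the 9 (11.1%), beside 5.74% of all genes tested. In 3 of the 9 the strains did not overlap. This held for 18.3% of all genes tested and 24.8% of those with a mean rlog of 7 or more. Tiparp, a target and repressor of the aryl hydrocarbon receptor, was at 10.54 to 10.79 rlog in BALB/cN and 11.03 to 11.22 in C57BL/6N, a difference of -0.48 (SE 0.07, adjusted p = 0.00188), and the call was lost among the corneas with high stromal markers (adjusted p = 0.0324) and without those high in lens and pigment markers (adjusted p = 0.0467). Klf4, an epithelial transcription factor, and Keap1, which holds the antioxidant regulator Nfe2l2 in check, were the others without overlap, with differences of -0.25 and 0.23 that did not pass the threshold (adjusted p = 0.018 and 0.0454). Ahr, the receptor itself, was at 10.19 to 10.83 in BALB/cN and at 9.50 to 10.52 in C57BL/6N, lowest in the 2 stroma-poor C57BL/6N corneas, with a difference of 0.59 (SE 0.25, adjusted p = 0.189). Nfe2l2, which drives the antioxidant response, differed by 0.02 (interval -0.09 to 0.12, adjusted p = 0.865). Cyp1a1 and Cyp1a2, the classical targets of the receptor, were listed at 0 in every cornea.

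Markers of other cell types moved with these differences as follows. The conjunctival keratins Krt13, Krt4 and Krt19 were called lower in BALB/cN (-2.51, -1.17 and -0.97). The call of Krt4 was lost among the corneas with high stromal markers (adjusted p = 0.0279) and that of Krt19 without those high in lens and pigment markers (adjusted p = 0.0119). By contrast, the goblet cell mucin Muc5ac was 2.19 higher with no call (adjusted p = 0.0225), and the mean over these 4 markers was 7.32 to 8.05 in BALB/cN and 8.16 to 8.46 in C57BL/6N. The mean of 5 leukocyte markers was 6.32 to 7.003 in BALB/cN and 6.07 to 6.81 in C57BL/6N, with 0 of 5 called. None of the 7 stromal, 3 endothelial, 10 lens or 6 pigment cell markers was called, and none of the defining markers was at 0. The part of these tissues in the differences of Aldh3b1, Adh7, Adh1, Gsto1 and the other called genes was not tested, and calls lost without the corneas that stand apart are given above.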

How the data were processed

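The authors sequenced RNA of 8 corneas (strand-specific libraries, paired 100-base reads). Reads were aligned to strain-specific versions of GRCm38 with TopHat2, mapped back with Lapels and counted over the union of the exons of each gene with HTSeq (Ensembl 94). The table deposited by the authors, made with DESeq2, holds rlog values, which are on a log2 scale, relative to library size and shrunk for low counts. Of the table's gene IDs 54409 were found in GENCODE M21, which gave symbols, GRCm38 coordinates and lengths.

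Strain differences were tested with limma 3.58.1 in R 4.3.3 (moderated variances, trend on the mean), in the 25402 genes whose mean rlog was not below 0. Benjamini-Hochberg adjusted p-values of 0.01 or less were called. Single genes also had an exact two-sided permutation test. The fit was tested on simulated data first. No 2 corneas had identical values. The deposited values carry no depth, so no counting interval is given, and differences on the rlog scale understate the changes of low genes. The 8 members and all lists were chosen with earlier results of these data known.

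Named were all members, the called genes of each list with up to 3 of its largest differences where fewer than 3 were called, the nearest tested protein-coding genes beside called members, and the 5 genes most like Aldh3a1. Aldh1a2, Aldh3b2, Aldh3b3, Aldh5a1, Gsta4, Tkt, Keap1, Nfe2l2, Cyp1a1, Cyp1a2, the marker genes and the most abundant genes were named after their values were seen. Sequences were compared with Biopython 1.88. Promoter windows of 5 members came from RefSeq; those of Aldh3a1, Aldh2 and Aldh7a1 were not used here. The alternatives tried were other variance models, filters and scalings, an empirical null, a stromal covariate, a replicate block, each cornea left out, a looser threshold, Aldh1a1 and Aldh1a7 summed, coding length and, chosen after seeing the data, the corneas that stand apart left out.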

Additional observations from a re-analysis of the deposited data

Results flagged for a closer look

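Among 56 groups of 4 corneas checked with Dixon's test, 4 held a cornea far from the other 3, where chance gives about 1 in 20, or 2.8 groups. The Aldh3a1 value of C57BL/6N cornea 3, 18.26 rlog, lay below the next at 18.45, a gap of 0.83 of the range of the strain. The Aldh1a2 value of C57BL/6N cornea 2, 4.76, lay above the next at 3.90. The Aldh8a1 value of 0.01 in C57BL/6N cornea 2 lay above -0.01 in the others, at the floor of the table. The mean of the corneal endothelium markers in BALB/cN cornea 2, 12.09, lay below the next at 12.66, in the cornea of that strain that was also lowest in stromal markers.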

How the results depend on the processing

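The number of genes called, 1458, was 1298 to 1609 without the variance trend, in a robust fit, with other filters and with quantile normalization. It was 958 with median centring, 0 with the empirical null (1730 with an unadjusted p under 0.05), 2444 with the stromal covariate, 2842 at an adjusted p of 0.05, 852 among corneas with high stromal markers, 447 without the corneas high in lens and pigment markers, and 953 to 1163 with 1 cornea left out. The number of members called, 2, was 0 with the empirical null and without the corneas high in lens and pigment markers, 1 among corneas with high stromal markers, 0 to 2 with 1 cornea left out (0 without BALB/cN cornea 3), and 2 in the other settings apart from the block. The direction of Aldh3b1, Aldh2, Aldh9a1 and Aldh3a2 was kept in all 20 settings. Among the genes tried, the sign turned only for members that were not called, and every other named gene with a call kept its direction. Aldh1a1 gave -0.044 with median centring, -0.0227 with the stromal covariate, -0.11 among corneas with high stromal markers, -0.074 without those high in lens and pigment markers and -0.0987 to 0.104 with 1 cornea left out. Aldh3a1 gave 0.046 with quantile normalization and 0.00793 without the corneas high in lens and pigment markers, Aldh7a1 gave -0.13 to 0.0583 with 1 cornea left out, and the sum of Aldh1a1 and Aldh1a7 gave 0.016. The share of Aldh3a1 among the members was 96.93% with coding length, against 98.5%. The cause of these changes was not tested.

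The strains share replicate numbers in the labels. Deviations from the strain means gave correlations of 0.305, -0.53, -0.203 and -0.454 between corneas of 1 number. The corneas also differed in stromal markers, so these values cannot settle whether the numbers pair the corneas. With the replicate number as a block 554 genes and 0 members were called, with adjusted p-values of 0.0168 for Aldh3b1 and 0.0224 for Aldh2. Since the deposited values carry no depth, the counting error behind low genes such as Aldh1a7 is unknown.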

Other observations

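The nearest tested genes beside the members that were not called were chosen for mention after their values were seen. Mgst3, a microsomal glutathione transferase 3434 bases from Aldh9a1, was at 11.69 to 11.86 rlog in BALB/cN and at 11.49 to 11.67 in C57BL/6N, a difference of 0.19 without a call (adjusted p = 0.0746). Anxa1, an annexin that dampens inflammation and the nearest tested gene upstream of Aldh1a1 at 101771 bases, was at 14.05 to 14.24 against 13.36 to 13.98, a difference of 0.41 (adjusted p = 0.0555). Tmc1, beside Aldh1a7, was low at 2.64 to 3.02 rlog in all corneas, with a difference of -0.28 (adjusted p = 0.0138). In each of these 3 genes the strains did not overlap. Such a separation was shown by 18.3% of all genes tested and 24.8% of those with a mean rlog of 7 or more. The strains overlapped in Usp22, Slc47a2, Tmco1, Gramd3 and Tex43, the other such neighbours outside the Aldh family.

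Aldh5a1, the succinate semialdehyde dehydrogenase of the GABA shunt, was likewise separated without a call. It was at 8.60, 8.68, 8.62 and 8.49 rlog in BALB/cN and at 8.43, 8.40, 8.40 and 8.27 in C57BL/6N, a difference of 0.22 (SE 0.07, adjusted p = 0.0755), and 10.02% of its 100-base windows were shared with other gene models.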
